A study of Drosophila melanogaster with 9 samples.

Results

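The 3′ untranslated regions (UTRs) of protein-coding genes on chromosome 4 of Drosophila melanogaster were examined for the small RNAs that map to them, on both strands, in ovaries with germline clones. The features were taken from 3′ UTR identifiers of RefSeq mRNAs (names that start with NM_) located on chromosome 4 of the dm3 genome. There were 140 such rows, and 78 features remained once rows with the same start, strand and values had been counted once, out of 4601 features in all. The 78 features belonged to 41 genes with a symbol and to 2 transcripts without one (NM_166783 and NM_166809). Of these features, 30 lay on the plus and 48 on the minus strand, and they had 67 different starts. An identifier gives the start of a feature but no end, so features are named here by gene, transcript and dm3 start on chromosome 4.

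Libraries of small RNAs of 18 to 30 nt were made from ovaries of females aged 3 to 5 days. The WT genotype was hs-Flp / +; FRTG13 / FRTG13, ovo[D1-18], and the other females carried enok[1] or enok[2] on the FRTG13 chromosome (enok1 and enok2), with 3 libraries in each of the 3 groups. All 9 libraries came from larvae heat shocked at 37 °C to induce the heat-shock FLP recombinase, and they share the ovoD background, in which germline cells that keep the dominant ovoD allele do not complete oogenesis. In the mutant groups, the egg chambers that develop further in this system have a germline homozygous for the enok allele. The somatic follicle cells around it need not be homozygous, and whether some of them were is not stated. Enok is a histone acetyltransferase, and the comparison asks which chromosome 4 3′ UTRs gain or lose small RNAs when the germline lacks its activity. The RNA came from egg chambers of middle and late oogenesis, past the stage that ovoD germline reaches. The study's methods call the 3 replicates of its small RNA data independent, and neither they nor the labels say whether these were separate crosses or collections of animals, so p-values measure the spread between these libraries.

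The fourth chromosome of Drosophila is very small and rich in heterochromatin. Its genes lie among transposon remnants, in chromatin that carries the heterochromatin protein HP1a and the chromosome-specific protein POF, and many of them are transcribed there nonetheless. PIWI-interacting RNAs (piRNAs) are small RNAs of the gonad that silence transposons. Most are cut from the transcripts of piRNA clusters, but in the germline and in follicle cells some are also made from the 3′ UTRs of ordinary mRNAs, and these have the sense of the mRNA. Antisense small RNAs at a 3′ UTR need a transcript of the opposite strand, for example from a gene that converges on it. The files do not separate piRNAs from other small RNAs by length at these features, so the term small RNA is used here.

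The values are abundances that the authors normalized to the microRNAs (miRNAs) of each library, on a linear scale. A single read was worth between 0.2715 and 0.485 in the different libraries, and the 78 features held the equivalent of between 1134.8 and 1903.5 sense reads and between 211.7 and 411.2 antisense reads per library. Cell identity was checked with small RNA sources. The germline cluster 42AB lay between 61091.34 and 63767.95 (sense) in WT and between 7992.3 and 13593.99 in the mutants, whereas the 3′ UTR of the germline gene oskar (osk) went the other way, with 6.0 to 10.77 in WT and 13.24 to 20.22 in the mutants. In contrast, flam, the follicle cell cluster, overlapped between the groups, between 21158.65 and 28134.78 in all 9 libraries. The 3′ UTR of traffic jam (tj), a follicle cell gene, had sense abundances between 49.37 and 75.01, that of the muscle gene Mhc between 0.05 and 0.47 and that of the neuronal gene elav between 1.97 and 6.92. Of the eggshell genes of late follicle cells, Cp18 lay between 353.08 and 491.45 in WT, between 16.29 and 132.64 in enok1 and between 160.49 and 394.35 in enok2, and Vm26Aa lay lower in enok1 (7.77 to 19.12) than in WT (27.61 to 52.86) and overlapped with WT in enok2 (18.83 to 43.03). Cp16 lay below WT in enok1 and overlapped in enok2, and Cp15 overlapped in all groups (967.02 to 5593.69). The part of these differences in the results was not tested. In pooled egg chambers, fewer cells of a type and fewer small RNAs per cell cannot be told apart.

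Sense small RNAs were present at low levels at most 3′ UTRs of chromosome 4. The mean over the 9 libraries reached 1 at 44 of the 78 features (56.4%), against 60.2% of all 4601 features, and it reached 10 at 11 features. Sense abundance was above 0 in every library at 69 features and at 0 in every library at 3, all of them of CG33521. The median WT level per feature was 1.21 on the fourth chromosome and 1.15 over all features. These levels are per feature and not per length, because the ends are not given.

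Antisense small RNAs were more frequent than on the large arms. A mean antisense abundance of at least 1 was reached at 16 of the 78 features (20.5%), against 188 of 4478 features (4.2%) on the arms 2L, 2R, 3L, 3R and X pooled, where the share per arm lay between 3.45% and 4.67%. In WT, antisense exceeded sense abundance at 14 of the 78 features (17.9%), against 6.32% on those arms. The heterochromatic sequences of dm3 (2LHet, 2RHet, 3LHet, 3RHet, XHet and U) held 43 features, of which 12 reached that antisense level (27.9%) and 9 had more antisense than sense (20.9%), so chromosome 4 did not lie above these. Features that share a start or overlap another gene are not independent of each other, so these shares are given as a description.

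**Figure D1:**
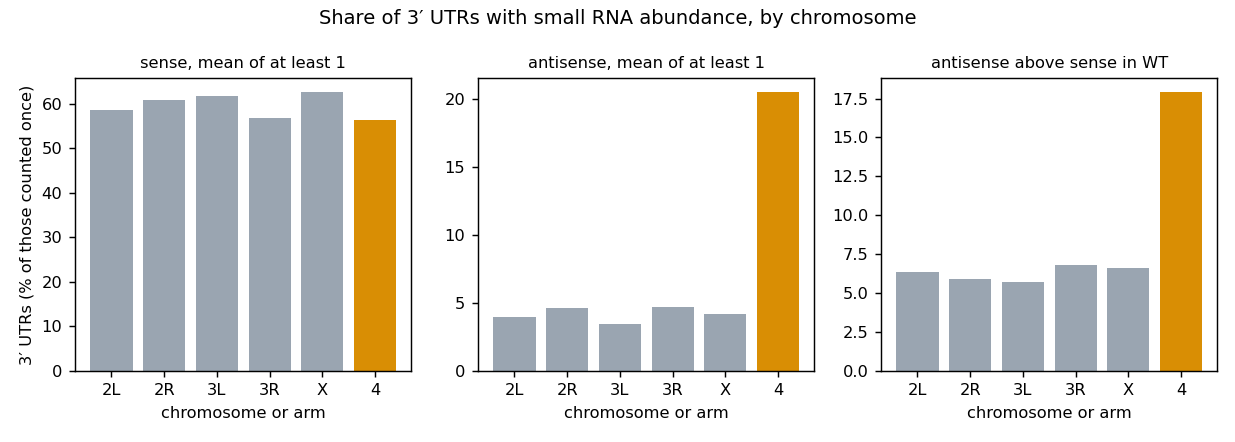
Share of 3′ UTR features (%, y axis) on chromosome 4 and the large arms (x axis, heterochromatic sequences not drawn) with a mean sense abundance of at least 1, with a mean antisense abundance of at least 1, and with more antisense than sense abundance in WT. The chromosome 4 bar (orange, 78 features) is close to the others for sense (56.4%) and stands above these 5 arms, though not above the heterochromatic sequences, for antisense (20.5% and 17.9%).

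In the sums of features counted once, a few genes held most of the small RNA abundance. In WT the sense abundance of the chromosome 4 features summed to 656.79 ± 82.86 (SD, n = 3), of which PlexA, a semaphorin receptor of axon guidance, held 26.7% and Tdg, a thymine DNA glycosylase of base excision repair, 18.5%. These shares are per feature, and a feature that stands for several rows was counted once. Reads look shared out between such rows. At CaMKII, which stands for 10 rows, WT replicate 1 had an antisense value of 0.04, where 1 read was worth 0.4005. Such features may hold more than their share shows, as anne may with 5 rows and 1.8%. The CG11360 features held 6.32% (NM_001272139), 5.68% (NM_143677) and 1.28% (NM_001272140). NM_166809 held 5.88%, Kif3C, a kinesin motor, 3.36%, and the Mitf features 2.08% and 1.57%. The 7 PMCA features together had a WT mean of 41.72. The antisense sum was 155.09 ± 10.79 (SD, n = 3), and Rnf11, a gene for a RING finger protein, held the largest part of it, with 28.0% and 24.1% at its features starting at 340426 and 348791. PlexA held 14.4% of the antisense sum and Hcf, the host cell factor that joins chromatin-modifying complexes to transcription factors, 6.25%.

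**Figure D2:**
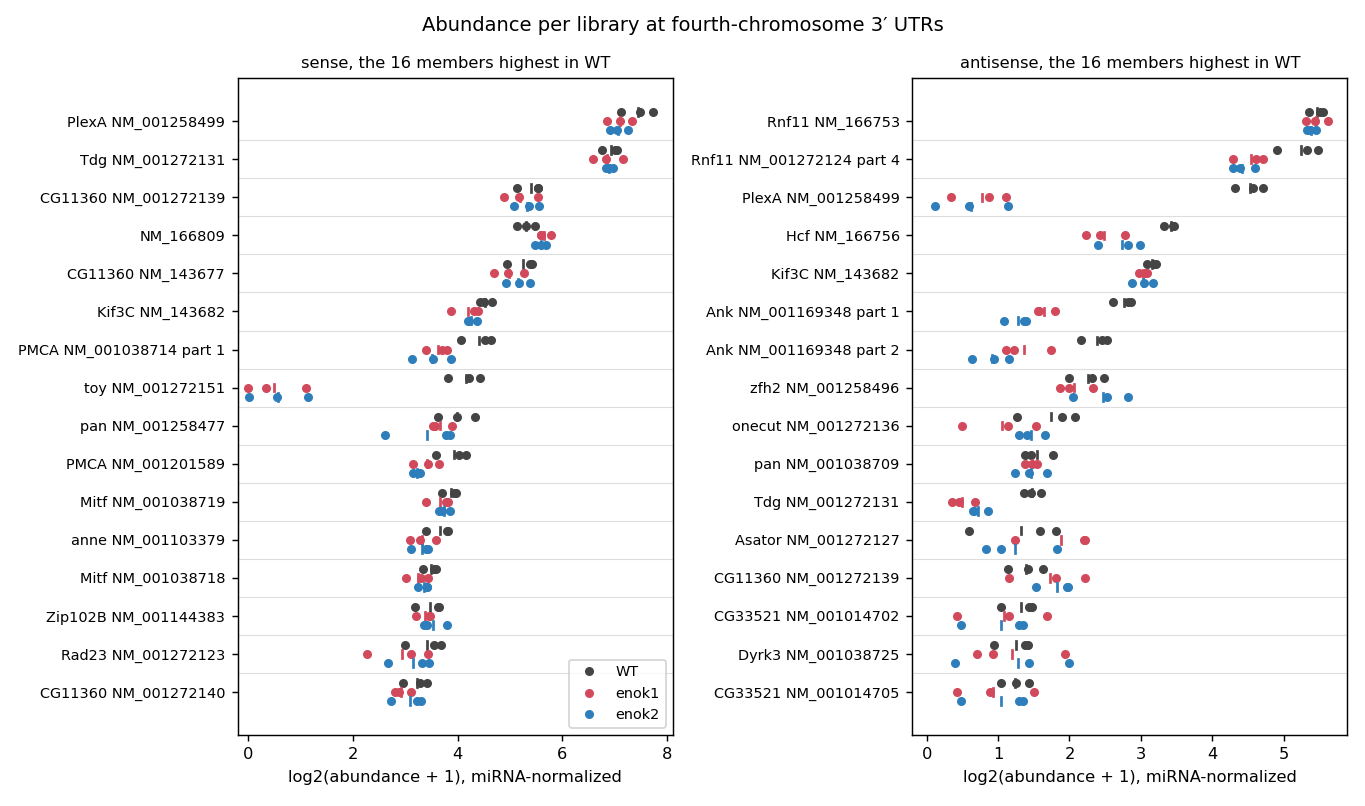
Abundance on the scale of log2(abundance + 1) (x axis) of the 16 features highest in WT on each strand (y axis), with 1 point per library and a tick at the mean of each group. Part numbers separate the pieces of a 3′ UTR of 1 transcript. The WT points of toy (sense) and PlexA (antisense) lie apart from all 6 mutant points, and those of both Ank features, Hcf, Rnf11 NM_001272124 and Tdg (antisense) also lie above them. So do those of PMCA NM_001038714 and Kif3C (sense), while those of NM_166809 (sense) lie below all 6. Such separation was not counted over all 3′ UTRs.

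Features of 1 gene that share a start could differ in level. Of the 78 features, 19 shared 8 starts. At the CG11360 start (706667) the WT sense means were 41.51, 37.32 and 8.41 for NM_001272139, NM_143677 and NM_001272140. At 349442 the WT sense mean was 20.46 for the PMCA transcript NM_001038714 and 0.43 for NM_001014688. Such features lie on the same stretch of RNA at least at their start and do not count as separate evidence of a change, and their ends are not given.

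The summed levels fell in the mutants more on the antisense than on the sense strand. The sense sums were 562.61, 718.49 and 689.27 in WT, 516.79, 550.93 and 652.57 in enok1 and 543.07, 550.36 and 607.55 in enok2. The means came to 87.31% of WT in enok1 and 86.33% in enok2 (over all 3′ UTRs 99.24% and 104.9%), and the groups overlapped. With libraries scaled to the piRNA clusters in place of the miRNAs, the sense sums were 111.1% and 100.7% of WT, so their direction depends on the scaling. The clusters themselves were lower in the mutants, with sums over both strands of 548223.4 to 577942.6 in WT and 301140.1 to 438337.9 in the mutants. Their scaling factors were 1.08 to 1.17 in WT and 0.74 to 1.04 in the mutants, so this scaling raises mutant values relative to WT. The antisense sums were 143.12, 164.08 and 158.08 in WT, 89.14, 107.7 and 122.8 in enok1 and 100.12, 103.38 and 97.01 in enok2. All 6 mutant libraries lay below the lowest WT library, at means of 68.7% and 64.59% of WT, against 89.84% and 91.02% over all 3′ UTRs, and with the cluster scaling the means were 86.61% and 75.19%. Without the features of toy and PlexA, an alternative chosen after seeing the data, the antisense sums were 79.5% and 74.95% of WT.

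Changes were then tested per feature with limma on log2(abundance + 1), over every 3′ UTR whose abundance averaged 1 or more, and an adjusted p under 0.05 made a call. On the sense strand, 3 of the 44 tested chromosome 4 features were called lower in enok1 and 2 in enok2, and none was called higher. Over all 2769 sense features tested, enok1 had 1.77% called lower and 7.01% called higher, and enok2 had 0.686% called lower and 1.66% called higher. The features called in enok1 were those of toy, Ank and PMCA, and those in enok2 of toy and Ank. With libraries scaled to the piRNA clusters, the sense calls were 1 lower (toy) and 2 higher (Rnf11 at 340426 and NM_166809) in enok1 and 2 lower and 1 higher (Arl4) in enok2, of 43 features tested. Under that scaling 0.894% of all 2796 features were lower and 21.2% higher in enok1, and 0.608% and 6.04% in enok2. For the 44 features the median log2 fold change was -0.11 in both mutants, against 0.20 (enok1) and 0.12 (enok2) over all features tested. Scaling to the clusters moved the medians over all features to 0.44 and 0.26 and those of the fourth chromosome to 0.13 and 0.06, which left the distance between the medians at -0.31 and -0.20 (-0.32 and -0.22 with the miRNA scaling). At an unadjusted p under 0.05, enok1 had 5 of the 44 features lower and 2 higher, and for enok2 these numbers were 5 and 1, against 3.72% lower and 19.3% higher over all features in enok1 and 3.9% and 13.8% in enok2.

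On the antisense strand, 5 of the 16 tested features were called lower in enok1, and the same number in enok2, with none called higher. Over all 216 antisense features tested, enok1 had 15.7% called lower and 8.8% called higher, and enok2 had 16.2% called lower and 11.6% called higher. In both mutants the called features were 1 each of PlexA, Hcf and Rnf11 and 2 of Ank. With the cluster scaling the antisense calls were 4 lower and 1 higher (Ephrin) in enok1 and 5 lower in enok2, while 12% of all antisense features were lower and 19.0% higher in enok1, and 14.8% and 13.9% in enok2. The 16 features had medians of -0.21 (enok1) and -0.17 (enok2) for the log2 fold change, against -0.04 over all antisense features in each comparison. Both comparisons share the WT libraries, so that the second is not an independent repeat of the first.

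**Figure D3:**
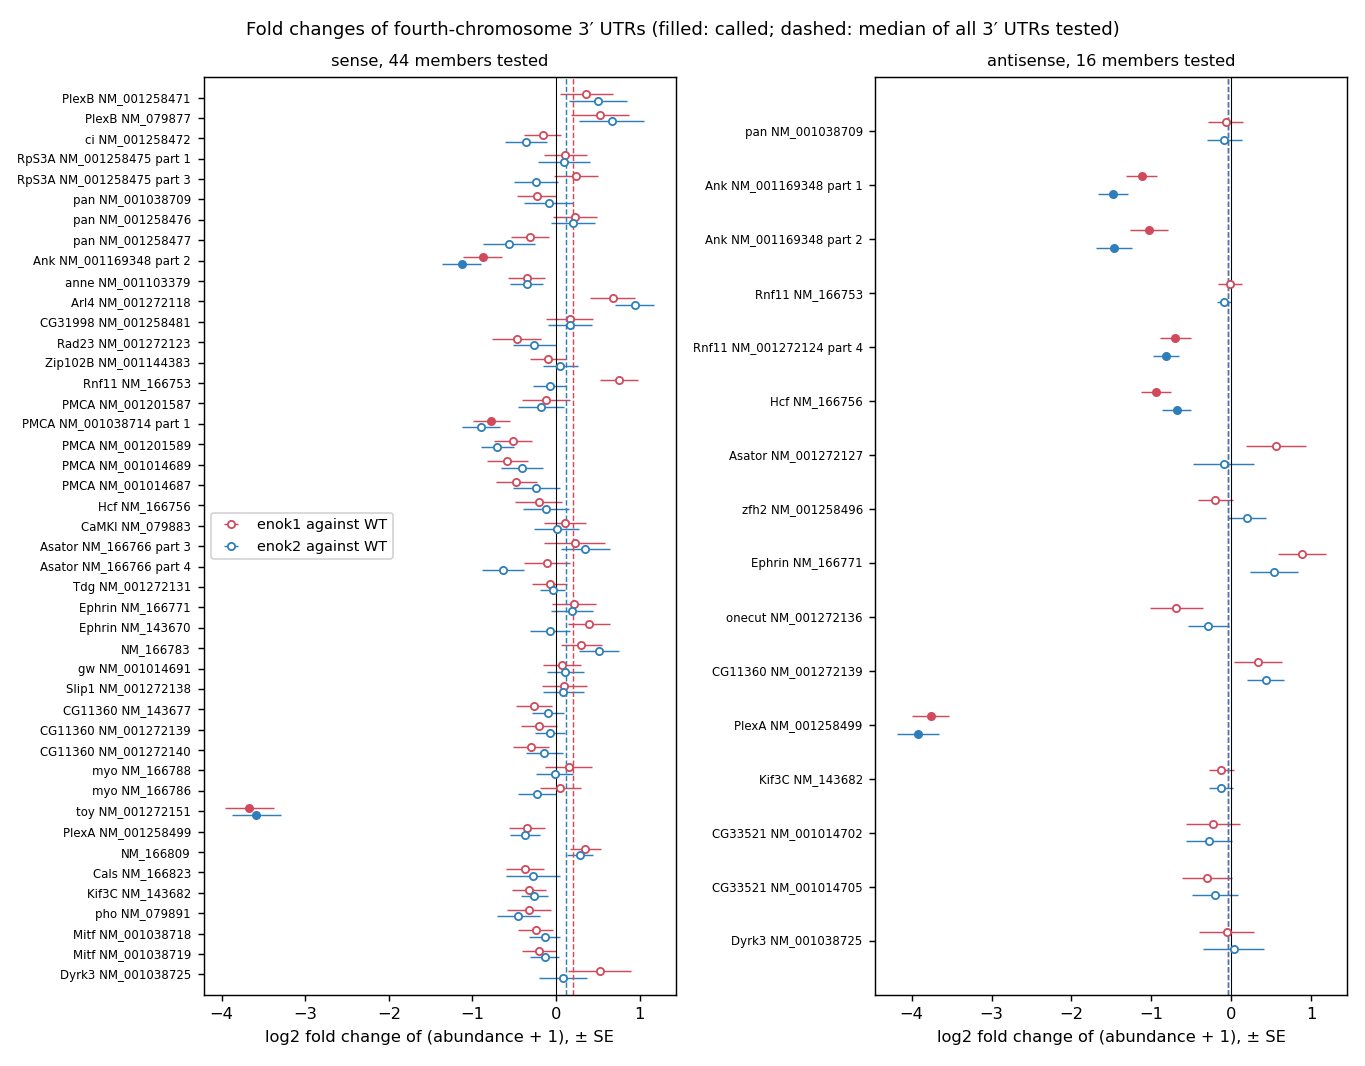
Log2 fold change of (abundance + 1) with its standard error (x axis) for each tested chromosome 4 feature in chromosomal order (y axis), enok1 in red and enok2 in blue, with filled points for called features. The dashed lines mark the medians of all 3′ UTRs tested (sense 0.20 and 0.12). Only toy on the sense and PlexA on the antisense strand lie below -3, and most other points lie between -1 and 1 under the miRNA scaling.

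The largest losses concerned toy and PlexA, a convergent pair of genes. twin of eyeless (toy) encodes a Pax6 transcription factor of eye development and lies on the plus strand. Its feature (NM_001272151, start 1026787) had sense abundances of 20.61, 12.97 and 17.54 in WT, of 0.27, 1.14 and 0 in enok1, and of 0.47, 0.01 and 1.19 in enok2. All mutant libraries held the equivalent of 3.0 reads or fewer, against 32.5 to 51.5 in WT. The mutant means were 2.76% and 3.27% of WT. The log2 fold changes were -3.67 ± 0.29 (SE; limma adjusted p = 1.2e-05) in enok1 and -3.58 ± 0.30 (adjusted p = 7.0e-05) in enok2, and the calls held without any 1 library. With the own residual variance of the feature, the adjusted p was 0.054 and 0.076.

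PlexA lies on the minus strand, and its feature (NM_001258499) starts at 1030521, 3734 bases past the start of the toy feature. Its antisense abundance was 25.24, 22.82 and 18.98 in WT, 0.27, 1.15 and 0.83 in enok1 and 0.08, 0.51 and 1.21 in enok2. The mutant means were thus 3.36% and 2.68% of WT, with log2 fold changes of -3.76 ± 0.23 (adjusted p = 7.8e-06) and -3.92 ± 0.26 (adjusted p = 1.6e-05). These calls also held without any 1 library, and with the own residual variance (adjusted p = 0.0036 and 0.0042).

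Antisense reads of PlexA and sense reads of toy both come from the plus strand. In read equivalents, toy and PlexA had 51.5 and 63.0, 32.5 and 57.2, and 42 and 45.4 in the WT libraries. In enok1 the values were 1.0 and 1.0, 3.0 and 3.0, and 0.0 and 2.0, and in enok2 they were 1.0 and 0.2, 0.0 and 1.1, and 3.0 and 3.1. The pair had nearly the same value in 3 mutant libraries and differed in the other 6. Whether some reads were counted at both features cannot be told from starts alone.

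The minus strand at the PlexA feature behaved otherwise. The PlexA sense abundance was 138.2, 210.14 and 178.52 in WT, 136.44, 114.7 and 160.58 in enok1 and 119.07, 131.1 and 151.14 in enok2. The groups overlapped, and the log2 fold changes of -0.35 ± 0.22 (adjusted p = 0.37) and -0.38 ± 0.18 (adjusted p = 0.30) were not called. The antisense share of all PlexA abundance was between 9.61% and 15.4% in the WT and between 0.0671% and 0.993% in the mutant libraries. At the toy feature the minus strand held little. Its antisense abundance lay between 0.02 and 0.85 in the 9 libraries, with means of 0.34, 0.58 and 0.36 in WT, enok1 and enok2, under the filter.

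**Figure D4:**
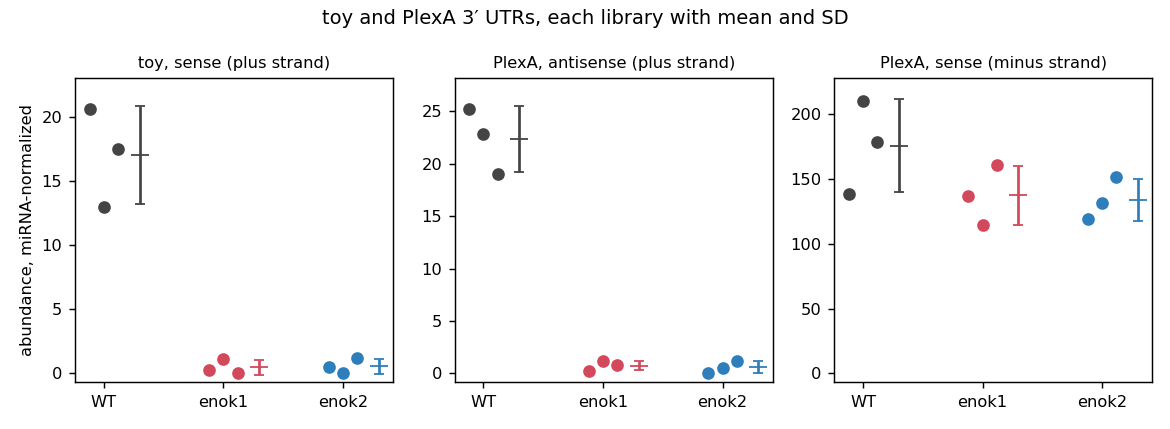
Abundance (miRNA-normalized, y axes with different ranges) at the 3′ UTRs of toy and PlexA in each library, with the mean and SD of each group (n = 3) beside the points. Plus-strand abundance (left and middle) lay between 12.97 and 25.24 in WT and at 1.21 or less in the mutants, whereas the minus-strand abundance of PlexA (right) overlapped between the groups.

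Ank, which encodes an ankyrin that ties membrane proteins to the spectrin skeleton, had fewer antisense small RNAs in the mutants at its pieces starting at 135700 and 135884. At 135884 it also had fewer sense ones. Its 3′ UTR on the minus strand (NM_001169348) is split, and the antisense abundance of the piece starting at 135700 was 6.04, 6.29 and 5.08 in WT, 1.94, 1.97 and 2.46 in enok1 and 1.11, 1.58 and 1.63 in enok2. These are 36.6% and 24.8% of WT, with log2 fold changes of -1.12 ± 0.19 (adjusted p = 0.0026) and -1.48 ± 0.19 (adjusted p = 0.00044). The piece starting at 135884 had antisense means of 4.24 ± 0.67, 1.61 ± 0.63 and 0.90 ± 0.34 (SD, n = 3) in WT, enok1 and enok2, and was called lower in both mutants (adjusted p = 0.011 and 0.0010). These antisense calls held without any 1 library, but the enok1 call of the piece at 135884 was lost without the filter on low values (adjusted p = 0.14) and with its own residual variance (adjusted p = 0.063). The sense abundance at 135700 lay under the filter, with means of 0.65, 0.26 and 0.26 in WT, enok1 and enok2. So did the Ank features at 137015 and 137312. Their sense means in WT, enok1 and enok2 were 0.68, 0.68 and 0.64, and 0.34, 0.45 and 0.47, with antisense at 0 in every library.

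The sense abundance of the same Ank piece (135884) was 3.44, 4.41 and 3.27 in WT, 1.44, 1.65 and 1.55 in enok1 and 1.01, 1.01 and 1.43 in enok2. All 6 mutant libraries lay below WT, at 41.7% and 31.0% of its mean, which amounts to 7.8 to 11.1 read equivalents in WT and 2.1 to 5.3 in the mutants. The sense log2 fold changes were -0.88 ± 0.23 (adjusted p = 0.034) and -1.13 ± 0.24 (adjusted p = 0.031). Leaving out any 1 of the 6 libraries of either comparison ended this call, with an adjusted p between 0.060 and 0.093 in enok1 and between 0.058 and 0.10 in enok2, and it was also lost without the filter (0.056 and 0.051) and with its own residual variance (0.065 and 0.080).

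PMCA, the calcium pump of the plasma membrane, and Rnf11 form another convergent pair. The PMCA feature of NM_001038714 at 349442 had sense abundances of 15.61, 23.92 and 21.84 in WT, 9.52, 12.94 and 11.93 in enok1 and 10.56, 13.54 and 7.76 in enok2. The mutant libraries all lay below WT, at 56.0% and 51.9% of its mean. The sense log2 fold change was called in enok1 (-0.77 ± 0.22, adjusted p = 0.043) and not in enok2 (-0.89 ± 0.23, adjusted p = 0.071), and enok2 did not differ from enok1 by a detectable amount (-0.12 ± 0.22, adjusted p = 0.94). The enok1 call held without WT replicate 1 and was lost without each of the other 5 libraries (adjusted p of 0.081 to 0.13), and it was lost with the cluster scaling (0.099), without the filter (0.084), with a pseudocount of 0.1 (0.056) and with the own residual variance (0.19). In enok2 it was called with a mean of at least 10 and no trend (0.022) and with the replicate block (0.040). The other 4 tested PMCA features had sense log2 fold changes between -0.58 and -0.12 in enok1 and between -0.70 and -0.18 in enok2, none of them called.

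The Rnf11 feature at 348791 (NM_001272124, plus strand) starts 28 bases before the first PMCA feature. Its antisense abundance was 28.95, 43.8 and 39.17 in WT, 18.61, 23.49 and 25.21 in enok1 and 19.94, 23.17 and 18.49 in enok2. It was called lower in both mutants, at 60.1% and 55.0% of WT (log2 fold changes of -0.70 ± 0.19, adjusted p = 0.026, and -0.82 ± 0.16, adjusted p = 0.0049). The enok1 call was lost without enok1 replicate 1 or 2 or without WT replicate 2 or 3 (adjusted p of 0.064 to 0.081). Without the filter the adjusted p was 0.40 and 0.19, with the own residual variance 0.12 and 0.061, and in enok1 with the cluster scaling 0.11.

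Antisense reads of Rnf11 and sense reads of PMCA share the minus strand, and their levels ran side by side. The 7 PMCA features summed to sense abundances of 33.34, 49.22 and 42.61 in WT, 20.84, 26.89 and 28.3 in enok1 and 23.09, 27.12 and 21.46 in enok2. The antisense abundance of Rnf11 at 348791 was between 85.4% and 91.9% of that sum in every library. Without the ends, reads counted at both genes cannot be told apart from reads of 2 separate sources, so the Rnf11 and PMCA results may not be separate either.

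**Figure D5:**
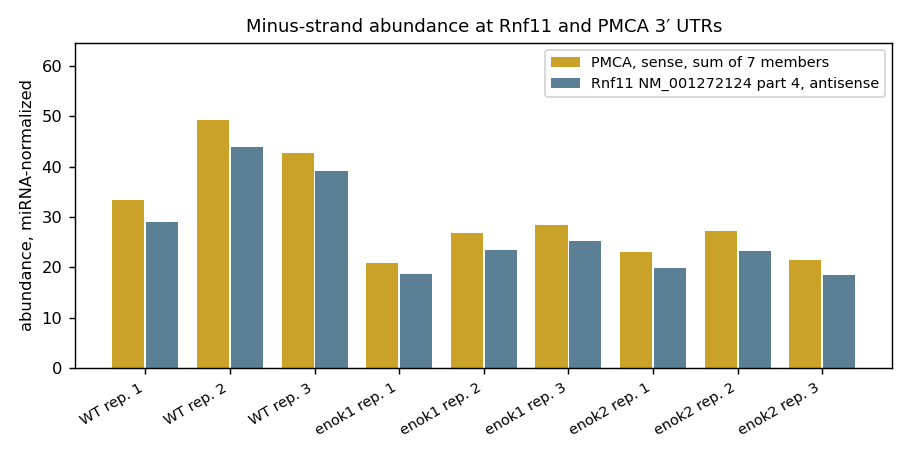
Minus-strand abundance (miRNA-normalized, y axis) in each library (x axis) as the sum of the sense abundances of 7 PMCA features and as the antisense abundance of the Rnf11 feature of NM_001272124 that starts at the facing position. The Rnf11 bar reached 85.4% to 91.9% of the PMCA bar in all 9 libraries, and both were lower in the mutants.

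The antisense level overlapped between the groups at a different feature of Rnf11. At 340426 (NM_166753) the antisense abundance was 39.82, 45.92 and 44.76 in WT, 38.82, 42.39 and 48.15 in enok1 and 39.3, 42.69 and 40.15 in enok2. The log2 fold changes were -0.02 ± 0.15 and -0.09 ± 0.09 (adjusted p = 0.95 and 0.56). The sense abundance of this feature was 6.62, 7.57 and 7.82 in WT, 13.63, 16.69 and 9.62 in enok1 and 6.56, 8.18 and 6.07 in enok2. The enok1 libraries all lay above WT, at 181.0% of its mean, and missed the threshold (0.75 ± 0.23, adjusted p = 0.053), while enok2 overlapped with WT (-0.08 ± 0.20, adjusted p = 0.89). The difference between enok2 and enok1 was -0.83 ± 0.22 (adjusted p = 0.60).

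Hcf carried more antisense than sense small RNAs and lost antisense ones. Its antisense abundance at 393019 (NM_166756) was 9.06, 10.06 and 9.96 in WT, 3.71, 5.84 and 4.36 in enok1 and 6.92, 4.29 and 6.05 in enok2. The groups did not overlap with WT, the means were 47.8% and 59.4% of it, and the log2 fold changes were -0.94 ± 0.19 (adjusted p = 0.0060) and -0.68 ± 0.18 (adjusted p = 0.020). The enok2 call was lost without enok2 replicate 3, WT replicate 2 or WT replicate 3 (adjusted p of 0.052 to 0.061). Without the filter neither call held (adjusted p = 0.080 and 0.25), and with the own residual variance only that in enok1 did (0.035 and 0.076). On the sense strand Hcf had means of 2.51 ± 0.84, 2.07 ± 0.96 and 2.22 ± 0.64 (SD, n = 3) in WT, enok1 and enok2, and was not called.

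Most of the strongly covered features did not pass the test in either mutant. The sense abundance of Tdg (561185) was 106.55, 127.69 and 130.19 in WT, 94.47, 113.34 and 141.38 in enok1 and 112.6, 116.91 and 123.63 in enok2, with log2 fold changes of -0.07 ± 0.21 and -0.04 ± 0.15. Its antisense abundance fell under the filter, with 1.58, 1.76 and 2.02 in WT, 0.37, 0.28 and 0.59 in enok1 and 0.81, 0.57 and 0.58 in enok2, so it was tested only in a fit without the filter, where it was called lower in both mutants (log2 fold changes of -0.98, adjusted p = 0.038, and -0.75, adjusted p = 0.046). For NM_166809, which has no symbol, the sense abundance was 38.69, 43.35 and 33.84 in WT, 47.47, 53.79 and 46.91 in enok1 and 43.5, 50.66 and 47.48 in enok2. All mutant libraries lay above WT there, at 128.0% and 122.0% of its mean, and the log2 fold changes of 0.35 ± 0.19 and 0.29 ± 0.16 were not called (adjusted p = 0.28 and 0.39).

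Kif3C carried small RNAs of both strands. Its sense means were 22.05 ± 1.84 in WT, 17.54 ± 3.36 in enok1 and 18.21 ± 1.30 in enok2, and its antisense means 7.94 ± 0.40, 7.20 ± 0.33 and 7.19 ± 0.82 (SD, n = 3). The mutants lay below WT in every library on the sense strand, at 79.6% and 82.6% of its mean, without a call (adjusted p = 0.36 and 0.44). Further genes with high sense levels were Mitf, a transcription factor of the lysosome programme, pan, the TCF factor of Wnt signalling, Zip102B, a zinc transporter of the ZIP family, and anne. Their sense means in WT were 13.63 ± 1.51, 15.06 ± 3.84, 10.24 ± 1.88 and 11.80 ± 2.05, and none was called. CG11360 (NM_001272139) had sense means of 41.51 ± 6.48, 36.16 ± 8.24 and 39.50 ± 6.71 in WT, enok1 and enok2.

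Besides NM_166809, the mutant means lay above WT in both mutants at some features of low abundance, and none of those described here was called. Arl4, a small GTPase of the Arf-like family, had sense abundances of 1.2, 1.2 and 0.84 in WT, 3.8, 1.52 and 2.02 in enok1 and 3.31, 2.91 and 2.75 in enok2. The mutants were above WT in all libraries, from 2.0 to 3.0 read equivalents in WT and 4.0 to 14.0 in the mutants, with log2 fold changes of 0.68 ± 0.27 (adjusted p = 0.14) and 0.94 ± 0.23 (adjusted p = 0.062). PlexB, the other plexin of chromosome 4, overlapped between groups (NM_079877, sense log2 fold changes of 0.52 ± 0.34 and 0.67 ± 0.39). For Ephrin, the ligand of the Eph receptor, the antisense abundance was 0.4, 1.6 and 0.97 in WT, 1.63, 3.03 and 3.24 in enok1 and 1.1, 1.94 and 2.49 in enok2 (0.88 ± 0.30, adjusted p = 0.060, and 0.53 ± 0.30, adjusted p = 0.27). Unlike these, the zinc finger homeodomain factor zfh2 lay below WT in enok1 and above it in enok2, with antisense means of 3.85 ± 0.80, 3.22 ± 0.73 and 4.65 ± 1.47 (SD, n = 3) in WT, enok1 and enok2, which overlapped.

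Grouped by known role, the calls were spread over several classes. Among transcription factors and chromatin genes (16 features of 11 genes), 9 features were tested on the sense strand and toy was called in both mutants, while 4 were tested on the antisense strand and Hcf was called in both. Their median sense log2 fold changes were -0.23 in enok1 and -0.14 in enok2. Among genes of metabolism, transport and structure (17 features of 7 genes), 10 features were tested on the sense strand. Ank and PMCA were called in enok1 and Ank in enok2, and the medians were -0.47 and -0.26. Several of these 10 features were of PMCA alone, so the medians do not weigh the 7 genes equally. On the antisense strand, 2 of 3 tested features of this class were called in each mutant, both of them pieces of 1 split Ank 3′ UTR. Over all features tested, 1.77% and 0.686% (sense) and 15.7% and 16.2% (antisense) were called lower in enok1 and enok2.

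Signalling genes (20 features of 9 genes) had 12 features tested on the sense strand, with no call, 1 of them (Arl4) higher and none lower at an unadjusted p under 0.05 in enok1, 1 higher (Arl4) and 1 lower (Asator, a tau tubulin kinase homologue, at 495079, -0.63, unadjusted p = 0.029) in enok2, and with medians of 0.22 and 0.05. Over all sense features, 3.72% were lower and 19.3% higher at that unadjusted p in enok1, and 3.9% and 13.8% in enok2. Of the 4 tested antisense features of signalling genes, PlexA was called in both mutants. Translation and RNA control genes (5 features of 3 genes: the ribosomal protein gene RpS3A, the initiation factor gene eIF4G1 and gw, a cofactor of miRNA silencing) had 3 features tested on the sense strand, with medians of 0.11 and 0.09 and no call. Of the neuronal genes, 2 features of Cals and Slip1 were tested and not called. Outside these classes (16 features of 10 genes), 8 features were tested on the sense strand without a call. Of the 5 tested there on the antisense strand, Rnf11 at 348791 was called lower in both mutants. The median over all 2769 sense features was 0.20 and 0.12 in the same fits.

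The alleles were also compared with each other. In enok2 against enok1, none of the 44 sense features was called (background 0.0361%), and 1, the Rnf11 feature at 340426, was lower at an unadjusted p of 0.0032. Over all sense features tested, 4.69% were lower and 2.13% higher at an unadjusted p under 0.05. None of the 16 antisense features was called (background 0.0%), and none had an unadjusted p under 0.05 (1.39% lower and 3.7% higher over all antisense features). The median log2 differences were 0.00 (sense) and -0.03 (antisense), against -0.07 and 0.03 over all features tested.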

How the data were processed

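Ovary small RNA libraries (9, with 3 per group) were compared by group labels. The methods of the study state that the authors ran piPipes on UCSC dm3 with no mismatch, kept unique mappers and normalized to miRNAs. The processing notes also name Trimmomatic. The deposited values are such a signal, linear and never negative. Only 36.2% to 39.5% of low values were whole steps of 1 read (tolerance 0.006, against 2.47% to 4.42% by chance), so reads look shared out and counts could not be recovered. The value of 1 read was read from these steps, and abundances divided by it are called read equivalents. Rows with the same start, strand and values were counted once. Where reads are shared out between such rows, this lowers the sums, the read equivalents and the means used in the filter. Precision at low levels is limited by reads, and no interval was given.

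Symbols came from a RefSeq table of Release 6, used for names only (137 of 140 rows matched). Tests used limma 3.58.1 in R 4.3.3 (intensity trend, log2(abundance + 1), mean of at least 1 over 9 libraries, only the compared groups), with Benjamini-Hochberg adjustment per strand over 2769 sense or 216 antisense features and calls under 0.05. This scale understates changes of low features. Summaries used Python 3.11.15. The step was tested on simulated data. Replicate numbers did not pair the libraries (correlations of deviations between -0.06 and 0.06).

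Features named are those called in either mutant, the 10 highest sense and 5 highest antisense genes, and the 5 largest changes per strand. Tdg antisense, the PMCA sum, the pairs, and values of other PMCA and CG11360 features were chosen after their values were seen. The features and gene lists were chosen with earlier results of these data known. Alternatives were a stricter filter or none, another pseudocount, 2 scalings, unmoderated variance, all rows, a replicate block and leaving out libraries. No sequence is shown, as no genome of the dm3 build was used here.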

Additional observations from a re-analysis of the deposited data

How the results depend on the processing

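The counts of called features moved under several alternatives. With a mean of at least 10 and no trend, 1 sense feature in enok1, 2 in enok2 and 1 antisense feature in each mutant were called lower, while of all features 6.71% and 5.7% (sense) and 30.4% in each mutant (antisense) were. For the settings that follow, the share called over all features is not given, so their counts only show how far the calls depend on the processing. With unmoderated variance, 0 sense features were called in either mutant and 3 antisense features in each. With no filter, 1 sense feature was called in enok2 and 6 antisense features in enok1 (3 lower and 3 higher, the latter all of pan). These 3 pan features had the same antisense values, 0 in every WT library and 0.05, 0.06 and 0.07 in enok1. Those values are below that of 1 read in each library, as where a read is shared out between features, so they do not count as 3 separate gains. Leaving out 1 library gave 1 to 2 sense calls in enok1, with Rnf11 at 340426 called higher without enok1 replicate 3, and 1 in enok2. With the replicate block, 3 sense features were called in each mutant, 6 antisense in enok1 (5 lower, 1 higher) and 4 in enok2. Without the feature of the largest mean (Rnf11 at 340426) the summed antisense abundances came to 56.84% (enok1) and 53.28% (enok2) of WT. The cause of these shifts was not tested, except that the stricter filter left 11 sense and 2 antisense features to test.

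Each of 54 log2 fold changes of named features was refitted. The sign turned in 30 refits, at values not called under either setting. Scaling to clusters, whose own sums were lower in the mutants, turned 16. In enok1 these were Hcf (0.017), Tdg (0.26), CG11360 (0.13), Mitf (0.11), pan (0.0052) and Zip102B (0.21) on the sense strand and Kif3C (0.18), Rnf11 at 340426 (0.32) and zfh2 (0.066) on the antisense strand. In enok2 they were Hcf (0.027), Tdg (0.17), CG11360 (0.14), Mitf (0.063) and Rnf11 at 340426 (0.11) on the sense strand and Kif3C (0.060) and Rnf11 at 340426 (0.12) on the antisense strand. Scaling to sense 3′ UTRs turned Zip102B in enok2 (-0.021). Leaving out 1 library at a time turned these, with ranges of -0.31 to 0.055 for Hcf sense in enok2, -0.22 to 0.065 and -0.13 to 0.012 for Tdg sense in enok1 and enok2, -0.20 to 0.058 for CG11360 sense in enok2, -0.096 to 0.13 for Zip102B sense in enok2, -0.19 to 0.0018 for Rnf11 at 340426 sense in enok2, -0.096 to 0.056 for Rnf11 at 340426 antisense in enok1, and -0.0077 to 0.45 and -0.029 to 0.43 for Ephrin sense in enok1 and enok2. The depth limits what can be said of features under about 10 read equivalents, which include Ank, Arl4 and Ephrin.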

Other observations

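There were 7 convergent pairs of chromosome 4 features with starts within 5000 bases. Only toy with PlexA and Rnf11 with PMCA were compared in each library. Rnf11 antisense ran side by side with the sum of the 7 PMCA features. The PMCA feature paired with it by start (NM_001201587 at 348819) alone had a WT sense mean of 1.64, against 37.31 for Rnf11 antisense. The levels of toy and PlexA, compared feature against feature, differed in all 3 WT libraries. In a further pair the Tdg sense abundance was 121.48 ± 12.99 in WT (SD, n = 3), while that of zfh2 antisense, on the same strand and 1900 bases away by start, was 3.85 ± 0.80. Whether the paired features overlap was not tested, as ends of dm3 features are not given.

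CG33521 had no sense small RNAs in any of the 9 libraries and antisense means of 1.51 ± 0.39 (NM_001014702) and 1.38 ± 0.33 (NM_001014705) in WT, 1.26 ± 0.94 and 1.00 ± 0.75 in enok1 and 1.13 ± 0.64 for both in enok2 (SD, n = 3). These were chosen after their values were seen and were not called.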
